A study of Mus musculus with 6 samples.

Results

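The genes described here are 5 STAT transcription factors (Stat2, Stat3, Stat5a, Stat5b and Stat6) and 3 JAK kinases (Jak1, Jak2 and Tyk2), taken by symbol from a table of 46095 genes. All 8 had counts in every heart and passed the filter on low counts, which 14484 genes passed. Other members of both families are not reported here. RNA was sequenced from 6 mouse hearts, 3 of them STAT3cKO, with STAT3 deletion directed to cardiomyocytes, and 3 wild type. The labels name neither the Cre line nor the deleted exons, and give no age, sex, litter or batch. Whether the hearts are of separate animals is not stated, so the p-values rest on how far these hearts differ from each other, and that difference could be technical. STAT3cKO replicates carry the numbers 3, 6 and 91 and wild-type replicates 1, 3 and 4, as in the sample titles.

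Receptors for cytokines, interferons and several hormones have no kinase of their own. JAK kinases bound to their tails phosphorylate the receptor and then a STAT protein, which pairs with another STAT, enters the nucleus and binds DNA. In the heart STAT3 is best known as the STAT activated by the IL-6 family of cytokines through the shared receptor gp130, and as a factor that protects cardiomyocytes under stress. The other STATs answer other signals: STAT5A and STAT5B growth hormone and prolactin, STAT6 interleukin-4 and interleukin-13, and STAT2 the type I interferons. The comparison asks whether the mRNA of any of them was higher where Stat3 mRNA was lower.

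Stat3, Stat5a and Stat5b lie side by side on chromosome 11 of GRCm38. Stat5b spans 100780731 to 100859004 on the minus strand, Stat5a 100859351 to 100885169 on the plus strand and Stat3 100886806 to 100939594 on the minus strand. Stat2 (128270498 to 128292853) and Stat6 (127642955 to 127660987) are both on chromosome 10. Jak1 is on chromosome 4, Jak2 on chromosome 19 and Tyk2 on chromosome 9. Stat6 overlaps Nab2 on the other strand and Jak1 overlaps Raver2 on the other strand. Stat2 overlaps Apof on the same strand, so strand could not tell their reads apart there. Gene models known only by an identifier also overlap Stat3, Stat6 and Jak1. The strand setting of the counting is not given in the sources used here, so reads in such overlaps cannot be assigned with certainty. Nab2 had 138, 83 and 214 counts in STAT3cKO replicates 3, 6 and 91, against 198, 187 and 202 in wild-type replicates 1, 3 and 4, fewer in each heart than the 725 or more counts of Stat6.

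The coding sequences of Stat5a and Stat5b are so alike that short reads cannot always be told apart. Of all 50-base words in the Stat5a transcript, 16.4% also occur in a transcript of another gene, and of those in Stat5b 11.8% do. For Stat3 the share was 0.384%, and for Stat2, Stat6, Jak1, Jak2 and Tyk2 no such word was shared. The Stat5a and Stat5b transcripts hold 10 identical runs of at least 50 bases, 1098 bases in all, and each run lies inside the coding sequence. The longest run, of 324 bases, is shown because a read inside it fits either gene. Capitals mark the first 285 bases of that run and lower case the 15 bases before it, from the GENCODE M21 transcripts. The first and last bases printed are 889 and 1188 of the Stat5a transcript and 1043 and 1342 of the Stat5b transcript.
Stat5a: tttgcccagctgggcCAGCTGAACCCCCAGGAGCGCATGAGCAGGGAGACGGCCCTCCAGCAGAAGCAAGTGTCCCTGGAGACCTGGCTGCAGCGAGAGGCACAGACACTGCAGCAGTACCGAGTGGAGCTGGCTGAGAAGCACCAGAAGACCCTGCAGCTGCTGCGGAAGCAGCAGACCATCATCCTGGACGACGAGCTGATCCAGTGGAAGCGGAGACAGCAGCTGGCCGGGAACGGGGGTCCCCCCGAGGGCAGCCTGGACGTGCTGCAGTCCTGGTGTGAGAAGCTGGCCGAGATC
Stat5b: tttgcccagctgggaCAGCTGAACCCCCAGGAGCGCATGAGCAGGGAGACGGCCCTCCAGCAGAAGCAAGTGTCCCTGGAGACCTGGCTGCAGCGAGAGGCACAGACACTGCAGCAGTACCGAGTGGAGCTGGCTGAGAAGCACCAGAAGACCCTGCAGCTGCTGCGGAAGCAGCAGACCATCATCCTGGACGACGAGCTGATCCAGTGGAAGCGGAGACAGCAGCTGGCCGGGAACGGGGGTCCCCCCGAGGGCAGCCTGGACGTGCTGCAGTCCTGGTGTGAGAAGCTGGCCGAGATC

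Stat3 mRNA was lower in STAT3cKO hearts, and no other STAT or JAK gene was higher. Of the 8 genes, 2 fell, Stat3 and Stat5b, and 0 rose (edgeR, adjusted p under 0.05). Over all genes tested, 12.6% were lower and 13.2% were higher. At an unadjusted p under 0.05, 3 of the 8 were lower and 0 higher. DESeq2 and limma-voom each also called 2 lower and 0 higher. Every STAT3cKO heart was below every wild-type heart for 5 of the 8 genes, where 21.5% of all genes tested showed that pattern. The 5 were Stat3, Stat5a, Stat5b, Jak1 and Jak2. For none of the 8 was every STAT3cKO heart above every wild-type heart, a pattern found in 21.5% of genes. The median log2 fold change of the 8 genes was -0.18, against -0.0016 over all genes tested. After correction for transcript length and GC content, described further on, it was 0.0008, against 0.021 over all genes, so the lower median was not seen there. Levels below are in CPM, counts scaled by TMM to a common library size. Each log2 fold change is that of STAT3cKO over wild type.

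**Figure D1:**
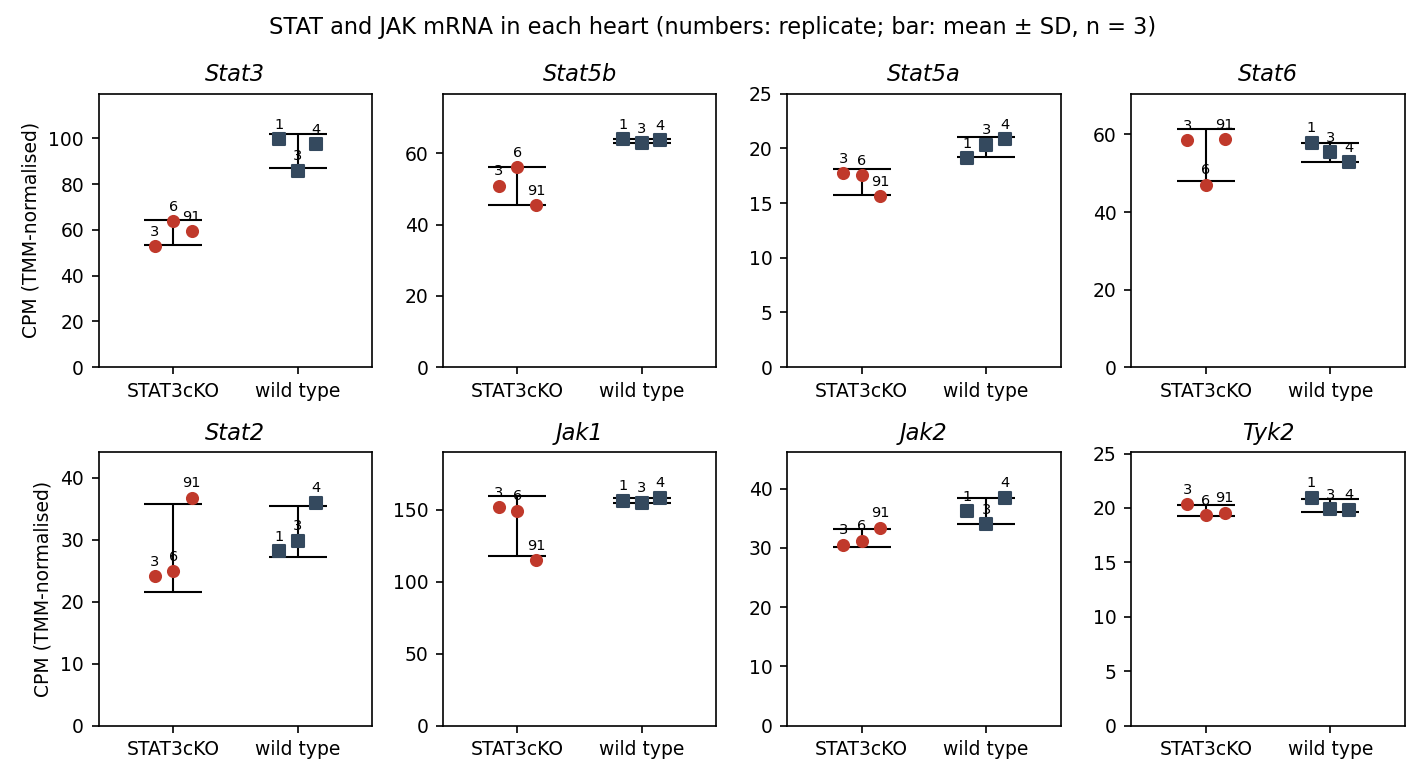
Each panel shows 1 gene, with the TMM-normalised CPM of the 3 STAT3cKO hearts (circles) left of the 3 wild-type hearts (squares), replicate numbers beside the points and the mean ± SD as a bar. Stat3 shows the widest gap, with STAT3cKO hearts between 52.9 and 63.7 CPM and wild-type hearts between 85.8 and 99.7 CPM.

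Stat3 had 775, 982 and 1088 counts in STAT3cKO replicates 3, 6 and 91, against 1937, 1439 and 1778 counts in wild-type replicates 1, 3 and 4. After normalisation these were 52.9, 63.7 and 59.6 CPM in STAT3cKO and 99.7, 85.8 and 97.5 CPM in wild-type hearts. The groups did not overlap, and the lowest wild-type heart stood above the highest STAT3cKO heart. Its log2 fold change, -0.68 ± 0.098 (SE; edgeR adjusted p = 0.000677), meant a fall to 0.623 of the wild-type level with a 95% interval of 0.537 to 0.722. The counts are per gene in whole tissue and do not show from which cell types or exons the Stat3 reads came. In whole-tissue RNA, fewer cells of a type and less RNA per cell cannot be told apart.

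Long transcripts as a class were lower in these STAT3cKO libraries. For each doubling of transcript length, log2 CPM deviated by -0.119, -0.0892 and -0.122 in STAT3cKO replicates 3, 6 and 91, against 0.054, 0.115 and 0.160 in wild-type replicates 1, 3 and 4, relative to the mean of all hearts. The 8 transcripts run from 3775 bases (Stat6) to 6042 bases (Stat3), so each was also fitted after taking out each heart's trend on length and GC content, called the length-corrected fit below. In that fit Stat3 was still lower, at -0.40 ± 0.094 on the log2 scale (SE; edgeR adjusted p = 0.0127). Over all genes, 7.49% were lower and 10.3% higher in it. Of the 8 genes it called Stat3 alone.

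Stat5b, which carries the signal of growth hormone with Stat5a, fell in the fit with TMM scaling. It had 50.9, 56.2 and 45.5 CPM in STAT3cKO replicates 3, 6 and 91, against 64.0, 62.8 and 63.6 CPM in wild-type replicates 1, 3 and 4. All STAT3cKO hearts lay below the wild-type hearts, which were tightly grouped. The log2 fold change was -0.32 ± 0.095 (SE; edgeR adjusted p = 0.0265). The call was lost in the length-corrected fit (log2 fold change -0.087, adjusted p = 0.533). It held without STAT3cKO replicate 6 (log2 fold change -0.40, adjusted p = 0.00942). Leaving out any other heart ended it, with log2 fold changes from -0.33 to -0.24 and adjusted p = 0.0725 without STAT3cKO replicate 3, 0.112 without STAT3cKO replicate 91, and 0.0687, 0.0657 and 0.0730 without wild-type replicates 1, 3 and 4.

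Stat5a had 17.7, 17.5 and 15.6 CPM in STAT3cKO replicates 3, 6 and 91, against 19.1, 20.3 and 20.8 CPM in wild-type replicates 1, 3 and 4. The groups did not overlap, but the difference did not pass, at -0.25 ± 0.11 on the log2 scale (SE; edgeR adjusted p = 0.119). It passed where library size alone set the scaling (log2 fold change -0.36, adjusted p = 0.0355), a setting that moved the median of all genes to -0.11. Because of the shared runs shown above, part of the counts of Stat5a and Stat5b could belong to the other gene.

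Stat6, the STAT of interleukin-4 signalling, did not differ beyond the spread between hearts. Its level was 58.5, 47.1 and 58.8 CPM in STAT3cKO replicates 3, 6 and 91, against 57.9, 55.5 and 52.9 CPM in wild-type replicates 1, 3 and 4. The groups overlapped, and the log2 fold change was -0.016 ± 0.10 (SE; edgeR adjusted p = 0.925). The 95% interval of the difference ran from -15.2% to 15.5% of the wild-type level.

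Stat2, which forms the interferon-responsive complex with IRF9, varied most, relative to its mean, within the STAT3cKO group. It had 24.2, 24.9 and 36.8 CPM in STAT3cKO replicates 3, 6 and 91, against 28.1, 29.8 and 36.0 CPM in wild-type replicates 1, 3 and 4. STAT3cKO replicates 3 and 6 were below every wild-type heart, and replicate 91 was above every one. The log2 fold change was -0.13 ± 0.16 (SE; edgeR adjusted p = 0.608). Without STAT3cKO replicate 91 it was -0.34 (adjusted p = 0.0787), and without STAT3cKO replicate 3 or wild-type replicate 4 it was -0.018 and -0.015. The same heart also had the highest summed level of 26 interferon-inducible genes, with 339, 378 and 482 CPM in STAT3cKO replicates 3, 6 and 91, against 405, 401 and 439 CPM in wild-type replicates 1, 3 and 4.

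Among the kinases, Jak1 is the one most needed for signalling through gp130. It had 152, 149 and 115 CPM in STAT3cKO replicates 3, 6 and 91, against 156, 155 and 158 CPM in wild-type replicates 1, 3 and 4. STAT3cKO replicates 3 and 6 lay close under the wild-type hearts, and replicate 91 was well below all the others. The log2 fold change was -0.18 ± 0.11 (SE; edgeR adjusted p = 0.253), and -0.049 without STAT3cKO replicate 91 (adjusted p = 0.748). With library size alone it was -0.30 and passed (adjusted p = 0.0403).

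Jak2, the kinase of the growth hormone, prolactin and erythropoietin receptors, had 30.6, 31.2 and 33.4 CPM in STAT3cKO replicates 3, 6 and 91. Wild-type replicates 1, 3 and 4 had 36.2, 34.0 and 38.5 CPM, so the groups stood apart by a narrow gap. The difference did not pass (log2 fold change -0.19 ± 0.097 (SE); edgeR adjusted p = 0.167). In the length-corrected fit its log2 fold change was -0.0082. Tyk2, which serves the type I interferon and interleukin-12 receptors, had 20.3, 19.3 and 19.5 CPM in STAT3cKO replicates 3, 6 and 91, against 21.0, 19.9 and 19.9 CPM in wild-type replicates 1, 3 and 4. The groups overlapped, at -0.035 ± 0.10 on the log2 scale (SE; edgeR adjusted p = 0.825). Of the 3 kinases 0 rose and 0 fell by edgeR, DESeq2 or limma-voom, and 0 passed at an unadjusted p under 0.05.

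**Figure D2:**
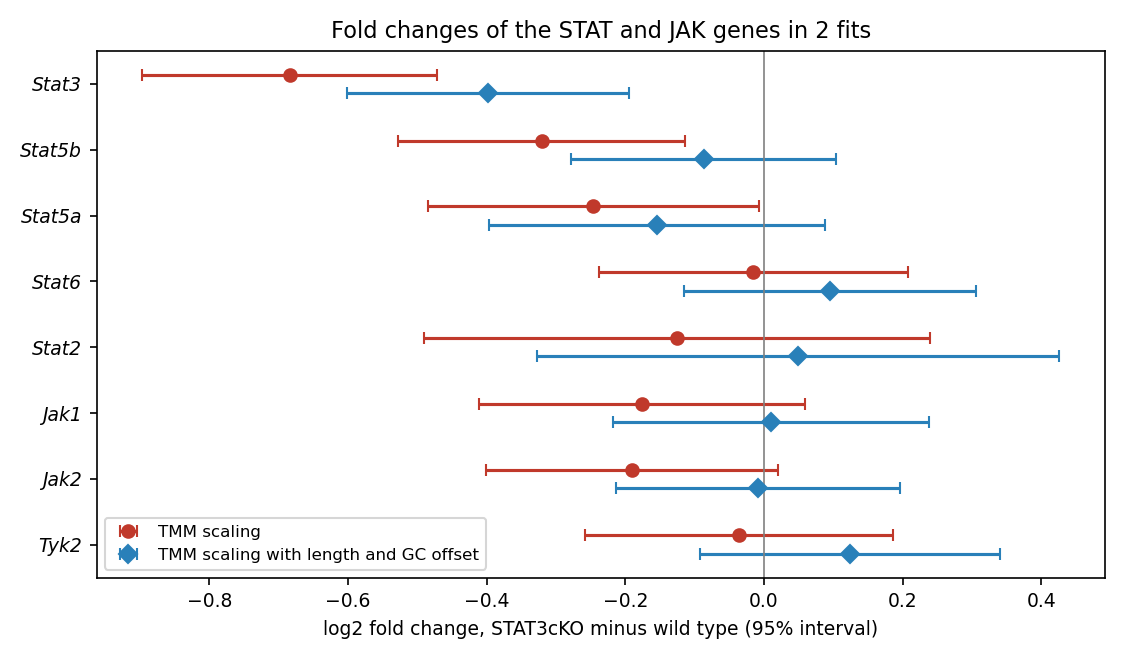
Points give the log2 fold change of each gene, STAT3cKO minus wild type, and bars its 95% interval, from the fit with TMM scaling (circles) and the length-corrected fit (diamonds). Only the interval of Stat3 lies wholly below 0 in both fits. With TMM scaling alone those of Stat5b and Stat5a do too, ending at -0.11 and -0.0070.

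The upper ends of the 95% intervals give, within each fit and for 1 gene at a time, the largest rise of whole-heart mRNA inside the interval. They do not cover a rise limited to cardiomyocytes. With TMM scaling, the 95% interval of the fold (STAT3cKO over wild type) ended at 1.18 for Stat2, 1.155 for Stat6, 0.995 for Stat5a and 0.924 for Stat5b. On the log2 scale those ends were 0.24 for Stat2, 0.21 for Stat6, -0.0070 for Stat5a and -0.11 for Stat5b. In the length-corrected fit, the upper ends were higher for each. They were 0.43 for Stat2, 0.31 for Stat6, 0.088 for Stat5a and 0.10 for Stat5b, also on the log2 scale. Direction was not settled for several genes, since Stat2, Stat6, Jak1 and Tyk2 had log2 fold changes of 0.049, 0.095, 0.0099 and 0.12 in the length-corrected fit, against values below 0 with TMM scaling alone. None of these passed in either fit.

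Levels were compared between genes as CPM per kilobase of transcript. In STAT3cKO hearts Jak1 was highest at 28.3 ± 4.21 CPM per kb (SD, n = 3), followed by Stat6 at 14.5 ± 1.78, Stat5b at 9.75 ± 1.02 and Stat3 at 9.72 ± 0.907. Below them came Stat2 at 6.51 ± 1.61, Jak2 at 6.31 ± 0.294, Stat5a at 4.36 ± 0.303 and Tyk2 at 4.09 ± 0.108 CPM per kb. In wild-type hearts Jak1 was also highest at 31.9 ± 0.358 CPM per kb, but Stat3 followed at 15.6 ± 1.23, ahead of Stat6 at 14.7 ± 0.660 and Stat5b at 12.2 ± 0.115. The rest of the wild-type order was Jak2 at 7.20 ± 0.448, Stat2 at 7.12 ± 0.942, Stat5a at 5.17 ± 0.231 and Tyk2 at 4.19 ± 0.130 CPM per kb. Neighbours whose hearts overlapped were Stat5b and Stat3, Stat2 and Jak2, and Stat5a and Tyk2 in STAT3cKO, and Stat3 and Stat6, and Jak2 and Stat2, in wild type. Stat3 stood level with Stat6 in wild-type hearts and below every value of Stat6 in STAT3cKO hearts.

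Added together, Stat2, Stat5a, Stat5b and Stat6 were not higher in STAT3cKO hearts. Their sum was 35.3, 33.4 and 36.7 CPM per kb in STAT3cKO replicates 3, 6 and 91, against 38.9, 38.8 and 39.8 CPM per kb in wild-type replicates 1, 3 and 4. All 3 STAT3cKO hearts were below the wild-type hearts, with a difference in means of -4.00 CPM per kb (two-sided exact permutation p = 0.1, and no smaller p is possible with 3 hearts a group). With the length trend taken out of the levels, the sums were 37.1 ± 1.83 in STAT3cKO and 37.1 ± 1.18 CPM per kb in wild type (SD, n = 3 each; exact permutation p = 1). The difference in Stat3 itself was -5.90 CPM per kb, from 9.72 ± 0.907 in STAT3cKO and 15.6 ± 1.23 in wild type. All 5 STAT genes together came to 44.9 ± 1.45 CPM per kb in STAT3cKO and 54.8 ± 1.57 CPM per kb in wild type (SD, n = 3 each).

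**Figure D3:**
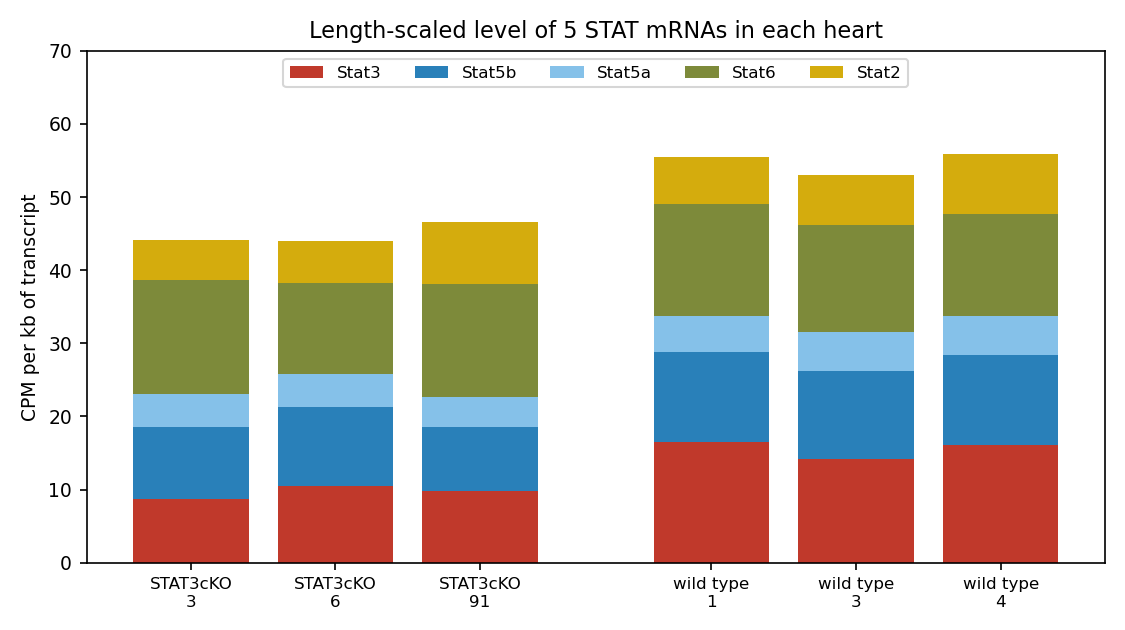
Stacked bars give the level of each of the 5 STAT mRNAs in each heart, in CPM per kb of transcript, with the STAT3cKO hearts left of the wild-type hearts. The stacks reach 44.0 to 46.5 in STAT3cKO hearts and 53.0 to 55.9 in wild-type hearts, and the Stat3 segment at the base is the one that differs most.

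Stat3 made up less of the STAT pool in each STAT3cKO heart than in any wild-type heart. It was 19.9%, 24.0% and 21.2% of the summed level of the 5 genes in STAT3cKO replicates 3, 6 and 91, against 29.8%, 26.8% and 28.9% in wild-type replicates 1, 3 and 4. The groups did not overlap (difference -6.82 percentage points, two-sided exact permutation p = 0.1, the smallest possible). With the length trend taken out the difference was -5.13 percentage points, a setting chosen after the data were seen. The share of Stat6 was 35.2%, 28.4% and 33.5% in the STAT3cKO hearts, against 27.7%, 27.7% and 25.1% in the wild-type hearts, while its level did not differ. Stat2, Stat5a and Stat5b held overlapping shares in the 2 groups.

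Ratios of raw counts within a heart do not depend on how libraries are scaled, but they still carry the trend on transcript length. Stat3 has a longer transcript than any of its partners, and these ratios were not computed with that trend taken out. For each Tyk2 count there were 2.60, 3.30 and 3.05 Stat3 counts in STAT3cKO replicates 3, 6 and 91, against 4.76, 4.32 and 4.91 in wild-type replicates 1, 3 and 4. For each Stat6 count there were 0.903, 1.35 and 1.01 Stat3 counts in STAT3cKO hearts, against 1.72, 1.55 and 1.84 in wild-type hearts. The groups also did not overlap for the ratios of Stat3 to the other 5 genes. Stat3 is the numerator of all 7 ratios, and its own level already separated the groups. The share of all genes with such a ratio was not computed, so the lack of overlap is no result about these 7 partners. Mean log2 ratios differed by -0.66 (Stat6), -0.65 (Tyk2), -0.54 (Stat2), -0.50 (Jak1), -0.49 (Jak2), -0.44 (Stat5a) and -0.36 (Stat5b), STAT3cKO minus wild type. Each had a two-sided exact permutation p of 0.1, the smallest possible, and 0.1 adjusted over the 7 ratios. A ratio shows that Stat3 changed unequally with its partner, not that the partner stayed the same.

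The neighbours of Stat3 on chromosome 11 went both ways. Of 56 tested genes that start within 1 Mb of Stat3, 4 were higher and 8 lower, Stat5b among them (21.4% called, against 25.8% of all genes tested). On the side of Stat5b the nearest tested genes were Ghdc (log2 fold change 0.046, edgeR adjusted p = 0.867), Rab5c (-0.011, adjusted p = 0.948) and Kat2a (0.31, adjusted p = 0.0592). On the other side came Ptrf, Atp6v0a1 (-0.071, adjusted p = 0.580) and Naglu (-0.13, adjusted p = 0.562). Ptrf, which encodes the caveolar coat protein cavin-1, was lower, with 189 CPM in STAT3cKO and 260 CPM in wild type (log2 fold change -0.46, edgeR adjusted p = 0.00957). Farther away, Aoc3 (-1.51, edgeR adjusted p = 0.000853), an amine oxidase of smooth muscle and endothelium, Jup (-0.61, adjusted p = 0.00085), the desmosomal protein plakoglobin, Fkbp10 (-0.74, adjusted p = 0.00432) and Ramp2 (-0.47, adjusted p = 0.00925), a partner of the adrenomedullin receptor, fell. Dnajc7 (0.44, adjusted p = 0.00347) and Zfp385c (1.99, adjusted p = 0.00949) rose. Zfp385c was near the floor, with 1.43, 1.69 and 1.10 CPM in STAT3cKO hearts and 0.566, 0.298 and 0.165 CPM in wild-type hearts. Its wild-type levels were too low to pass the filter without the STAT3cKO hearts, so its rise carries little weight. All 7 of the called genes named here passed without any 1 heart and in the length-corrected fit, which does not lift that limit on Zfp385c. The number that rose within 1 Mb was 2 without wild-type replicate 3 or 4.

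**Figure D4:**
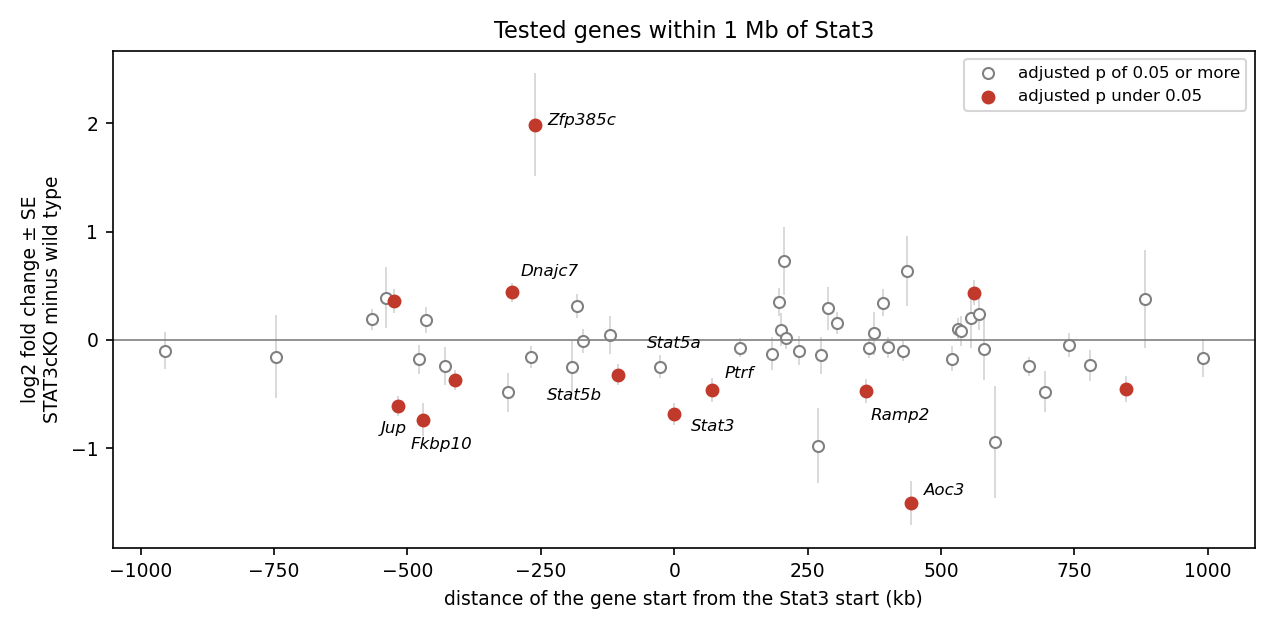
Each point is a tested gene, placed by the distance of its start from that of Stat3 (in kb, along the chromosome) and by its log2 fold change ± SE, STAT3cKO minus wild type, with filled points for adjusted p under 0.05. Filled points lie on both sides of 0, and Ptrf at -0.46 is the filled point next to Stat3 on the right.

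Gene models known only by an identifier aside, the genes whose level over the 6 hearts ran closest to that of Stat3 were Rasal2, Lrrc8b, Man2a1, Fryl and Dgkh. Likeness was the root mean square difference of centred log2 values over the 6 hearts, among 9187 genes with enough reads. It was 0.0431 for Rasal2, 0.0506 for Lrrc8b, 0.0563 for Man2a1, 0.0612 for Fryl and 0.0674 for Dgkh. The closest of the other STAT and JAK genes was Stat5b at 0.212. The log2 fold changes of these 5 ran from -0.74 (Lrrc8b) to -0.61 (Fryl), on either side of that of Stat3. They lie near it because the genes were chosen for likeness in these same hearts.

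Of 25 tested receptors that signal through JAKs, 3 rose and 5 fell, where 13.2% of all genes were higher and 12.6% lower. The share that rose is near that of all genes. The median log2 fold change was -0.10, and 0.020 in the length-corrected fit. Il11ra1, the interleukin-11 receptor, had 68.9, 66.5 and 69.0 CPM in STAT3cKO replicates 3, 6 and 91, against 41.4, 51.4 and 41.4 CPM in wild-type replicates 1, 3 and 4 (log2 fold change 0.61, edgeR adjusted p = 0.00141). Mice carry a near-identical copy of this gene, Il11ra2, that could share its reads. Il6ra, the ligand-binding interleukin-6 receptor, fell (-1.03, adjusted p = 0.00812, and 0.0792 in the length-corrected fit), and so did Prlr, the prolactin receptor that uses Jak2 and Stat5 (-1.37, adjusted p = 0.00328). Il6st, which encodes gp130 and was chosen after its values were seen, had 180, 184 and 172 CPM in STAT3cKO hearts and 205, 220 and 195 CPM in wild-type hearts and did not pass (-0.21, adjusted p = 0.0983). The number that fell was 2 without STAT3cKO replicate 3 and in the length-corrected fit, and 3 without STAT3cKO replicate 91 or wild-type replicate 1 or 3. The number that rose was 5 without STAT3cKO replicate 6.

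Of the ligands of these receptors only 4 of 18 listed were tested, and 3 had no count in any heart. Il15 fell (log2 fold change -0.42, edgeR adjusted p = 0.0363), a call lost without any 1 heart other than STAT3cKO replicate 6, and 0 ligands rose. At an unadjusted p under 0.05, 0 ligands were higher, and DESeq2 and limma-voom called 0 higher.

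Of 20 tested inhibitors of the pathway, 4 fell and 0 rose (0 higher at an unadjusted p under 0.05 and by DESeq2 or limma-voom), where 12.6% of all genes were lower and 13.2% higher. Their median log2 fold change was -0.12, and it changed sign to 0.061 in the length-corrected fit, in which 3 fell. Cbl, a ubiquitin ligase that marks activated receptors for degradation, had 19.5, 23.3 and 17.5 CPM in STAT3cKO replicates 3, 6 and 91, against 34.1, 36.2 and 40.6 CPM in wild-type replicates 1, 3 and 4 (-0.88, edgeR adjusted p = 0.000594). Socs4 (-0.83, adjusted p = 0.00767) and Sh2b3 (-0.40, adjusted p = 0.0109), the adaptor LNK that restrains Jak2, also fell. So did Ptprc (-0.62, adjusted p = 0.0117, and 0.0600 in the length-corrected fit), the leukocyte phosphatase CD45. The feedback genes Socs3 and Cish, induced by STAT3 and STAT5 and chosen here after their values were seen, did not pass (log2 fold changes 0.19 and 0.11, edgeR adjusted p = 0.633 and 0.566). Socs3 had 3.14, 6.17 and 5.69 CPM in STAT3cKO hearts and 4.58, 5.37 and 3.24 CPM in wild-type hearts, which overlapped.

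Among 20 cofactors and regulators of STAT3, 1 rose and 3 fell, where 13.2% of all genes were higher and 12.6% lower. Their median log2 fold change was 0.023. Ndufa13, a complex I subunit that binds STAT3, had 478, 466 and 483 CPM in STAT3cKO replicates 3, 6 and 91, against 334, 274 and 237 CPM in wild-type replicates 1, 3 and 4 (0.76, edgeR adjusted p = 0.00103, and 0.00643 in the length-corrected fit). The coactivators Ep300 (-0.59, adjusted p = 0.0016) and Ncoa1 (-0.55, adjusted p = 0.00686) and the importin Kpnb1 (-0.27, adjusted p = 0.0445) fell. In the length-corrected fit none of these 3 passed (adjusted p = 0.221, 0.185 and 0.945), and Kpnb1 did not pass once any 1 heart was left out. That fit called 2 cofactors higher and 0 lower. The second was Crebbp, another coactivator, chosen after its values were seen, at 0.30 on the log2 scale (edgeR adjusted p = 0.0710) with TMM scaling and 0.75 (adjusted p = 0.000517) in the length-corrected fit.

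Genes known as STAT3 targets were more often higher than lower. Of 26 tested, 8 rose and 1 fell, where 13.2% of all genes were higher and 12.6% lower. The median log2 fold change was 0.31, against -0.0016 over all genes tested. Vegfa, the main endothelial growth factor, had 505, 424 and 448 CPM in STAT3cKO replicates 3, 6 and 91, against 242, 271 and 281 CPM in wild-type replicates 1, 3 and 4 (0.80, edgeR adjusted p = 0.000379). The metallothioneins Mt1 (0.90, adjusted p = 0.000686) and Mt2 (0.97, adjusted p = 0.000785) rose with it, and Ccnd1, cyclin D1, fell (-0.54, adjusted p = 0.0033). These 4 passed without any 1 heart and in the length-corrected fit. The number that rose was 5 without STAT3cKO replicate 91 or wild-type replicate 1, 4 without wild-type replicate 3 or 4, and 5 with library size alone. Many of these genes answer to other transcription factors as well.

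Of 7 STAT5 targets tested, 1 rose and 1 fell, where 13.2% of all genes were higher and 12.6% lower. Igf1, insulin-like growth factor 1, fell (log2 fold change -0.57, edgeR adjusted p = 0.00894, and 0.136 in the length-corrected fit). Id1 rose (0.78, adjusted p = 0.0344), a call lost in the length-corrected fit (adjusted p = 0.0922) and without any 1 heart other than wild-type replicate 1 (adjusted p from 0.0508 to 0.0938).

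Of 12 STAT6 targets listed, only 5 passed the filter on low counts and were tested. Of these 5, 3 fell and 0 rose, where 12.6% of all genes were lower and 13.2% higher. At an unadjusted p under 0.05 and by DESeq2 or limma-voom, 0 were higher. The median log2 fold change of the 5 tested targets was -1.20. A low gene could pass the filter through its wild-type hearts, so this median is not that of the whole list. Mgl2, which was not called, had 0.478, 0.390 and 0.493 CPM in STAT3cKO hearts and 0.669, 1.79 and 0.933 CPM in wild-type hearts. Mrc1, a mannose receptor of macrophages, had 27.2, 33.6 and 45.9 CPM in STAT3cKO replicates 3, 6 and 91, against 72.5, 62.5 and 58.8 CPM in wild-type replicates 1, 3 and 4 (-0.86, edgeR adjusted p = 0.0075). Retnla (-2.46, adjusted p = 0.00569) and Ccl24 (-1.20, adjusted p = 0.0270), both made by alternatively activated macrophages, fell as well, both at low levels. Retnla had 0.205, 1.23 and 0.767 CPM in STAT3cKO hearts and 2.6, 6.2 and 3.6 CPM in wild-type hearts. For Ccl24 the values were 0.614, 1.43 and 1.42 CPM in STAT3cKO hearts and 3.6, 2.3 and 2.1 CPM in wild-type hearts. Ccl24 no longer passed without STAT3cKO replicate 3 (adjusted p = 0.0918) and without wild-type replicate 1 (0.126). With a stricter filter on low counts 1 target fell. Macrophage and monocyte markers moved with them, and 8 of 14 fell and 0 rose, with a summed level of 212 to 309 CPM in STAT3cKO hearts and 339 to 415 CPM in wild-type hearts. The part of macrophages in the STAT6 target result was not tested.

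Of 25 interferon-inducible targets tested, 2 rose and 2 fell, where 13.2% of all genes were higher and 12.6% lower. Their median log2 fold change was -0.094. Ifi27 (0.64, edgeR adjusted p = 0.00246) and Ifi35 (0.44, adjusted p = 0.0174) rose, and the RNA sensors Ifih1 (-0.56, adjusted p = 0.0142) and Ddx58 (-0.31, adjusted p = 0.0419) fell. Of these 4, Ifi27 alone passed in the length-corrected fit (adjusted p = 0.0424). Over the whole list that fit called 1 target higher and 2 lower, with a median log2 fold change of -0.19. The number that fell was 5 without STAT3cKO replicate 91, the heart in which Stat2 was high. It was 0 without STAT3cKO replicate 3 or wild-type replicate 4 and 1 without STAT3cKO replicate 6 or wild-type replicate 1. The number that rose was 1 without STAT3cKO replicate 91 or wild-type replicate 3 or 4.

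**Figure D5:**
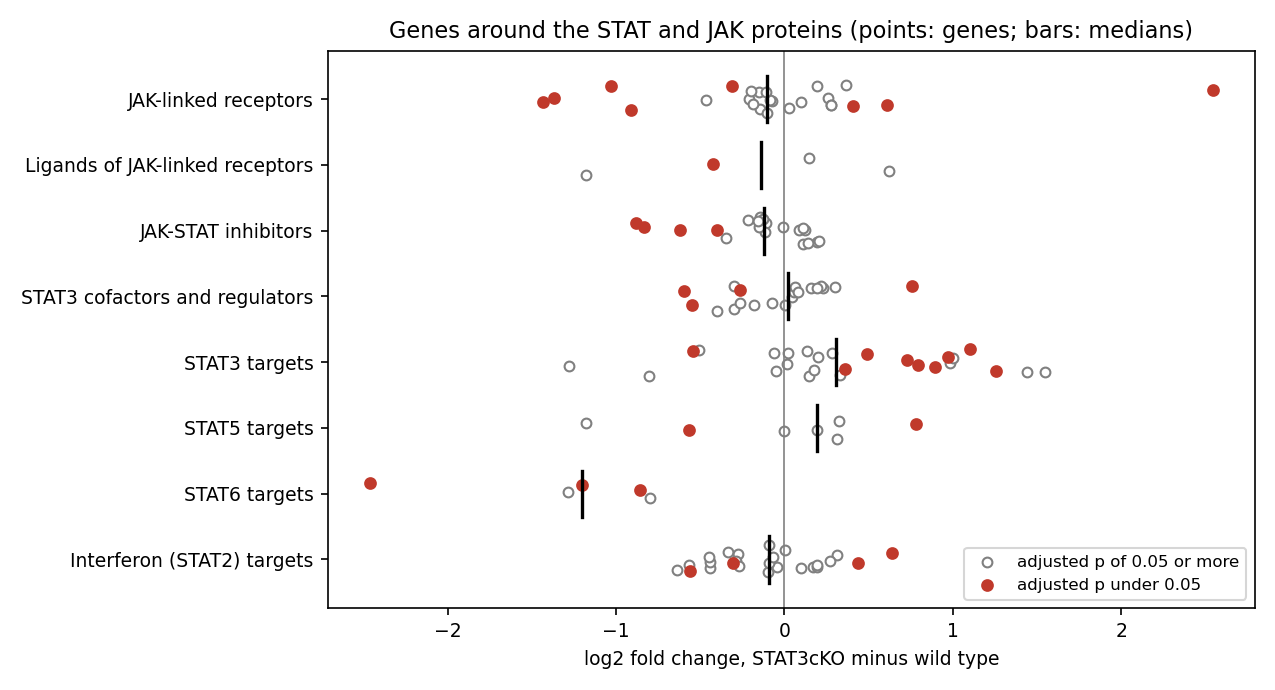
Each point is a tested gene of 8 lists around the STAT and JAK proteins, placed by its log2 fold change, STAT3cKO minus wild type, with filled points for adjusted p under 0.05 and a bar at the list's median. Medians lie between -0.14 and 0.31 for all lists but the STAT6 targets at -1.20, where 5 of 12 listed genes were tested.

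Cell types of the heart other than cardiomyocytes also express STATs and JAKs, and markers of several of them were lower. The counts below stand beside 13.2% of all genes tested that were higher and 12.6% that were lower. Endothelial markers fell in 8 of 12 cases and 0 rose, with a summed level of 1095 to 1240 CPM in STAT3cKO hearts and 1651 to 1873 CPM in wild-type hearts. Smooth muscle and pericyte markers fell in 7 of 12 cases, 4 in the length-corrected fit, and 0 rose (950 to 1248 CPM in STAT3cKO, 1682 to 1780 CPM in wild type). Fibroblast markers went both ways, with 1 of 12 higher and 4 lower (3619 to 4607 CPM in STAT3cKO, 2870 to 4229 CPM in wild type). Cardiomyocyte markers, of which Myh6 was the most abundant, rose in 3 of 12 cases and fell in 1 (64980 to 75410 CPM in STAT3cKO, 56580 to 63560 CPM in wild type). In the length-corrected fit 2 of these markers were higher and 0 lower. Lymphocyte markers summed to 5.58 to 9.80 CPM in STAT3cKO and 2.74 to 5.91 CPM in wild type, and neutrophil markers to 8.05 to 12.8 CPM in STAT3cKO and 1.81 to 7.001 CPM in wild type, with 1 of 3 tested higher in each list. The lymphocyte call, Cd79b, was lost in the length-corrected fit (adjusted p = 0.0868), by DESeq2 and limma-voom, and without any 1 heart other than STAT3cKO replicate 6. Red blood cell transcripts were higher in 5 of 6 cases (338 to 692 CPM in STAT3cKO, 92.5 to 161 CPM in wild type), but in 0 in the length-corrected fit or without wild-type replicate 1 or 4, 1 without wild-type replicate 3 and 2 without STAT3cKO replicate 91. For endothelial, smooth muscle and macrophage markers 1, 0 and 0 were higher at an unadjusted p under 0.05, and DESeq2 and limma-voom called 0 higher in each. Without STAT3cKO replicate 6, 1 endothelial marker rose, and macrophage markers fell in 4 cases without wild-type replicate 1 and in 5 without STAT3cKO replicate 3. The part of these cell types in the Stat3, Stat5a, Stat5b and Jak values was not tested.

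Bases around annotated start sites of the 8 genes were searched for the palindromes that STAT dimers bind. The windows run from 250 bases before to 50 after such a site (GRCm38.p6), 10 windows for the 8 genes. All windows of Stat5a and Stat5b lie inside the gene spans given earlier. The bases just before the outer starts of those spans were therefore not searched, and the counts below do not cover them. The spacing preferred by most STATs, TTCNNNGAA, occurred in 0 of the 10 windows, and in 8.30% of 32851 windows of all genes. The wider spacing preferred by STAT6, TTCNNNNGAA, occurred in 1 of the 10, and in 6.95% of all windows. Both patterns read the same on either strand. The match lay 210 bases before the Stat2 start, and it is shown with 10 bases on each side (chr10:128270278-128270307, plus strand), with the match in capitals.
Stat2: tcagtttcctTTCCCTAGAActcacggttc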

How the data were processed

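RNA was sequenced from 3 STAT3cKO and 3 wild-type mouse hearts. The values deposited by the authors are raw counts by gene symbol, not normalised, from 15416877 to 18264052 per heart. HISAT2 and GRCm38 are named in the submitters' processing notes. The sources used here do not say which program and annotation were used for counting, whether strand was used, or how multi-mapping reads were treated. No pair of hearts of a group was alike within sampling noise (chi-square per gene 8.90 or more).

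In R 4.3.3 with edgeR 4.0.16, low genes were dropped (filterByExpr, minimum count 10), libraries were scaled by TMM and genotype was tested by the robust quasi-likelihood F test. P-values were adjusted by Benjamini-Hochberg across the 14484 genes, with a threshold of 0.05. Each SE is the absolute log2 fold change over the root of F. The members and gene lists were chosen with earlier results of these data known. From each pathway list, up to 4 called genes with the smallest adjusted p were named, or the one with the smallest p. One such receptor gene is not reported here. Near Stat3, the 3 nearest tested genes on each side of its cluster and up to 6 called genes were named, and the 5 genes most like Stat3 (mean log2 CPM of at least 3, with 0.5 CPM added). Models known only by identifier were left out.

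Transcript lengths are those of the longest coding transcript in GENCODE M21. Coordinates are from RefSeq GRCm38.p6, matched for 92.3% of symbols. The length-corrected fit has as offset each heart's spline trend (5 degrees of freedom) of log2 CPM on length and GC content. The fit was tested on simulated data. DESeq2 1.42.0 and limma 3.58.1 (voom), other scalings and filters, and leaving out each heart were tried.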

Additional observations from a re-analysis of the deposited data

How the results depend on the processing

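Stat3 was lower and called in all 16 alternatives, with log2 fold changes from -0.80 to -0.40, the last in the length-corrected fit, and from -0.75 to -0.61 where 1 heart was left out (edgeR adjusted p up to 0.00503). None of the 8 genes was called higher in any of the 16. In the length-corrected fit, Stat2 (log2 fold change 0.049), Stat6 (0.095), Jak1 (0.0099) and Tyk2 (0.12) changed sign, all short of the threshold, and the Stat5b call was lost (-0.087). Stat6 ranged from -0.064 to 0.082 and Stat5b from -0.40 to -0.24 where 1 heart was left out. With library size alone, Stat5a (-0.36) and Jak1 (-0.30) passed. The number of the 8 genes that fell was then 4, against 1 in the length-corrected fit and 1 to 2 without 1 heart. The summed level of Stat2, Stat5a, Stat5b and Stat6 differed by -4.77 to -3.13 CPM per kb without 1 heart and by 0.0132 with the length trend taken out, both chosen after the data were seen. The Stat3 share differed by -7.98 to -5.13 percentage points over 8 alternatives.

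Over all genes, library size alone gave 1109 higher and 2714 lower, the length-corrected fit gave 1085 lower, and leaving out 1 heart gave 1237 to 1887 higher and 1198 to 1999 lower, the lowest of both without wild-type replicate 4. Within 1 Mb of Stat3, library size alone gave 2 higher and 13 lower, and leaving out 1 heart gave 2 to 6 higher. Over the gene lists together 26 genes rose and 48 fell, with 17 rising in the length-corrected fit and 14 to 28 without 1 heart. Of 512 counts per list, direction and alternative, 436 were within 1.5 times the reported count and 76 moved beyond it. Causes of these shifts were not tested. No paired analysis was possible because the groups share only 1 replicate number. With 3 hearts a group, no single value can reach an exact permutation p under 0.1.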
